A study of Mus musculus with 8 samples.

Results

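DNA replication and the step from G1 into S phase were followed through 39 genes, taken by symbol from the 24062 genes of a raw count table of cultured mouse bone marrow myeloid cells. All 39 had a row in the table, all passed the filter on low counts that left 13197 genes for testing, and they were chosen by name and role, with earlier results of these data known. Bone marrow from C57BL/6 mice aged 2 months was cultured for 3 days with 40 ng/mL of M-CSF, the growth factor of the macrophage lineage, and 4 µg of DNase-treated total RNA went into each stranded library. The 4 groups had 2 libraries each, 8 in all. PARP1 WT carried the genotype PARP1 flox/flox and PARP1CKO carried PARP1 flox/flox with lysozyme-Cre, while PARP2 WT and PARP2CKO carried PARP2 flox/flox without and with lysozyme-Cre. Lysozyme-Cre is active in the myeloid lineage, so cells of other lineages and cells that had not yet expressed lysozyme kept the floxed gene, and no group carried the Cre without a floxed gene. The design calls the libraries biological duplicates, and the labels do not say that each came from its own mouse, so the p-values below measure the spread between these libraries.

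Library totals ran from 37852450 to 61845125 counts, and scaling factors for composition ran from 0.965 to 1.03. Parp1 was at 202 and 211 CPM (counts scaled to a common library size) in its controls, and PARP1CKO held 63.2 and 59.1 CPM (log2 fold change -1.75, adjusted p = 0.0134, edgeR). Parp2 was at 48.2 and 48.3 CPM in its controls, and PARP2CKO held 25.7 and 25.6 CPM (log2 fold change -0.91, adjusted p = 0.000139, edgeR). Both targeted genes were thus lower in the libraries labelled as their knockout, with reads remaining. In the PARP2 line Parp1 was uneven between the controls, at 251 CPM in replicate 1 and 155 CPM in replicate 2, with 263 and 264 CPM in PARP2CKO. The samples are labelled immature myeloid cells, and Itgam, which encodes CD11b, stood at 881 to 1040 CPM in all 8 libraries.

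Before a cell copies its DNA, the origin recognition complex, CDC6 and CDT1 load the MCM2 to MCM7 ring onto origins in G1, and geminin then blocks further loading. In S phase, CDC45 and the GINS complex turn the ring into an active helicase, and primase, the polymerases, the sliding clamp PCNA and its loader RFC make the new strands. Cyclin E and the E2F factors drive entry into S phase, and many genes of this machinery are E2F targets, so their mRNA is high in dividing cells and low in resting ones. In marrow cultures M-CSF keeps precursors dividing while they differentiate. In bulk RNA, fewer cells in S phase and less mRNA per cell cannot be told apart.

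The members were chosen by name and role and not by promoter sequence. Many genes of this machinery are known E2F targets, so their E2F words are a description and no independent finding. Of the 39 members, 32 had an entry in a RefSeq table of promoters on GRCm38.p6, each spanning 250 bases before to 50 bases after the start, and Gmnn, Mcm4, Gins1, Gins2, Gins4, Pole and Ccne2 had none. One of 4 words of the E2F consensus (TTTGGCGC, TTTCCCGC, TTTGCCGC or TTTCGCGC, searched on both strands) was present in 14 of the 32 genes, and in 40.0% of their 35 promoters, against 2.26% of all 32851 promoters in the table and 3.84% of the promoters of genes tested. The word CCAAT was in 71.4% of member promoters, in 37.4% of all promoters and in 37.7% of those of genes tested. The GC box GGGCGG was in 74.3%, 35.7% and 61.1%, so that most of its excess over all promoters was shared by the genes tested. The word TTTGAA, part of the element shared by many mitotic genes, was in 11.4% of member promoters, 17.9% of all promoters and 12.1% of those of genes tested. Words were counted separately for each motif, so they may overlap. A match is a description of the letters and not a site of binding. The windows printed here show the word in capitals, in the direction of the gene, for Dtl and Cdt1, which varied most between libraries, for 4 subunits of the MCM ring, and for Orc1, Rfc3 and E2f2 as examples of other roles. The promoters of Mcm3, Mcm5, Mcm6, Mcm7 and Rfc3 held further words, and each window marks a single one. In Mcm5 and Rfc3 a further word lies in lower case within the printed window, and in Mcm5 it overlaps the marked word. In Mcm6 the further words overlap each other outside the printed window.
Dtl, chr1:191575534-191575563, minus strand: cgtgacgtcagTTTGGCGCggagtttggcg
Cdt1, chr8:122568036-122568064, plus strand: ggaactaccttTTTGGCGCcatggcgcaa
Mcm3, chr1:20820275-20820304, minus strand: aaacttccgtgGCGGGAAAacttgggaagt
Mcm5, chr8:75109345-75109374, plus strand: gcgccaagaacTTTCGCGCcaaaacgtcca
Mcm6, chr1:128359734-128359763, minus strand: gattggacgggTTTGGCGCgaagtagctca
Mcm7, chr5:138171849-138171878, minus strand: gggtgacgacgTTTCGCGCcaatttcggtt
Orc1, chr4:108579416-108579445, plus strand: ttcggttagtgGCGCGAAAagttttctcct
Rfc3, chr5:151651200-151651229, minus strand: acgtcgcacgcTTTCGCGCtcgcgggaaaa
E2f2, chr4:136172302-136172323, plus strand: gcggcatatagTTTGGCGCtaa
The word began 8 bases before the start in Dtl, 47 before it in Mcm6 and 153 before it in Mcm5. The Rrm1, E2f1 and Slbp windows held none of these 4 words.

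All 39 members were well expressed. The lowest count of any member in any library was 372, for Gins3, and the highest was 34253, for Pcna. Levels can be compared between genes only per length, so each CPM was divided by the exonic length of the gene to give an FPKM (CPM per kilobase). On that scale Gins3 (3.33 FPKM, mean of the 8 libraries) and Orc1 (3.34 FPKM) were lowest, and Pcna (357 FPKM) stood well apart at the top, followed by Mcm5 at 57.3, Mcm3 at 53.5, Rrm1 at 52.6 and Mcm6 at 50.3 FPKM. Within the MCM ring the 6 subunits lay between 31.0 FPKM (Mcm7) and 57.3 FPKM (Mcm5). The 4 GINS subunits, which are needed in equal number in the complex, spread more widely, from 3.33 FPKM for Gins3 to 20.1 FPKM for Gins4. Part of that spread comes from the lengths, which join the exons of all protein-coding transcripts, from 1087 bases for Gins1 to 3900 for Gins2. In CPM the subunits ran from 9.03 for Gins3 to 27.1 for Gins4. Of the regulators, Gmnn (27.4 FPKM) and Cdt1 (31.2 FPKM) lay side by side. The G1/S group of Ccne1, Ccne2, E2f1, E2f2 and Dtl ran from 6.45 FPKM for Dtl to 16.5 FPKM for E2f1. Genes of other roles lay in that range too, such as Gins2 (6.6 FPKM), Pole (7.22 FPKM) and Cdc6 (7.65 FPKM).

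**Figure D1:**
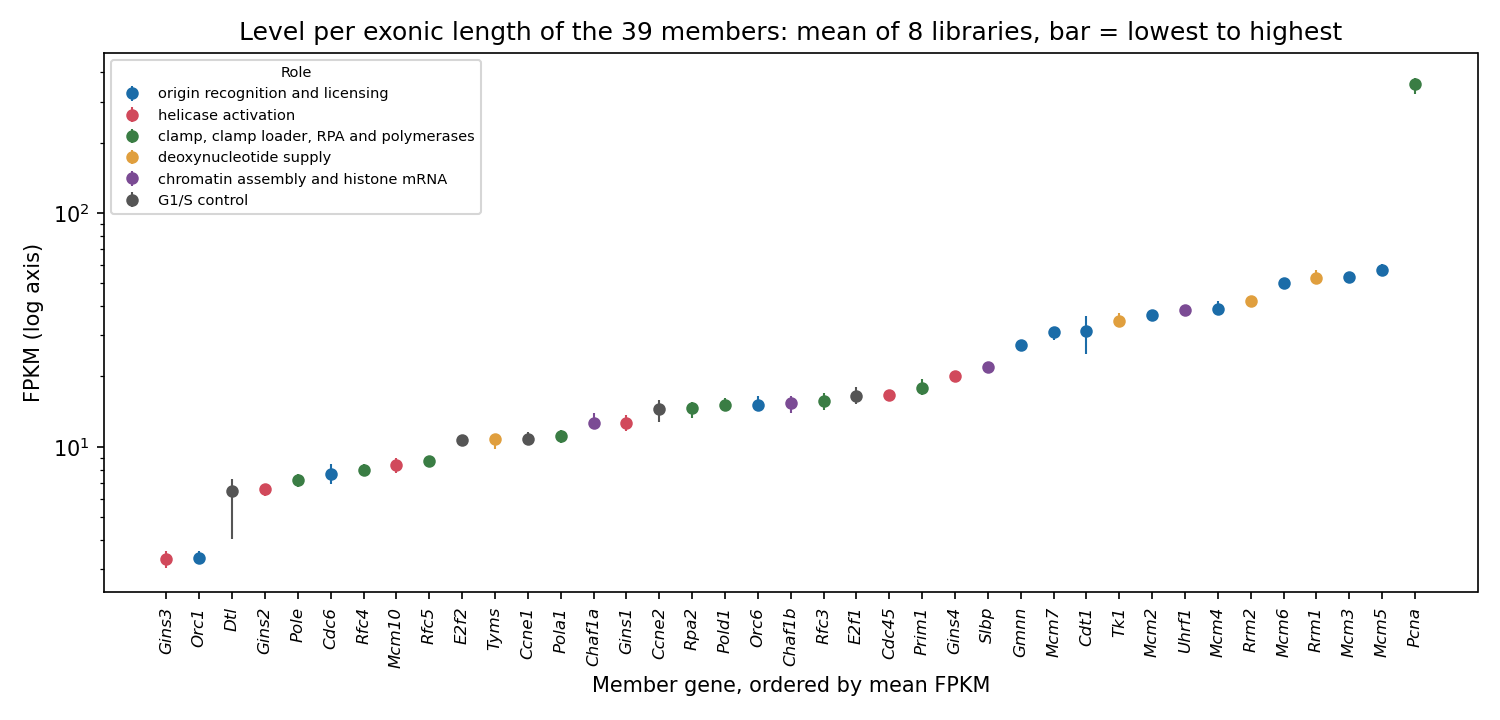
Level per exonic length (FPKM, log axis) of each of the 39 members, as the mean of 8 libraries, with bars from the lowest to the highest library and colours for roles. Gins3 and Orc1 lie at 3.33 and 3.34 FPKM and Pcna at 357 FPKM, and the bars are short except those of Dtl and Cdt1.

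The levels varied little between libraries. The ratio of the highest to the lowest CPM over the 8 libraries ran from 1.06 (Rfc5 and E2f2) to 1.81 (Dtl), with a median of 1.13. It was under 1.2 for 35 of the 39 members, and the exceptions were Cdc6 (1.21), Ccne2 (1.24), Cdt1 (1.45) and Dtl. Of the 8858 genes tested whose mean CPM reached that of the lowest member, 66.9% were under 1.2, with a median ratio of 1.16. Summed over the 39 members, PARP1 WT held 3051 and 3121 CPM (3086 ± 49.8, SD, n = 2) beside 3126 and 2952 CPM in its knockout (3039 ± 123). PARP2 WT held 2959 and 2992 CPM (2975 ± 22.7) beside 3069 and 2963 CPM in its knockout (3016 ± 74.8). Each knockout overlapped its own control, and the largest gap between duplicates, in PARP1CKO, was wider than the gap between any knockout mean and its control mean. Duplicates differed in the same direction for most members in every group. Replicate 1 was above replicate 2 for 32 of 39 members in PARP1CKO and for 29 in PARP2CKO, and replicate 2 was the higher one for 27 members in PARP1 WT and for 26 in PARP2 WT.

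**Figure D2:**
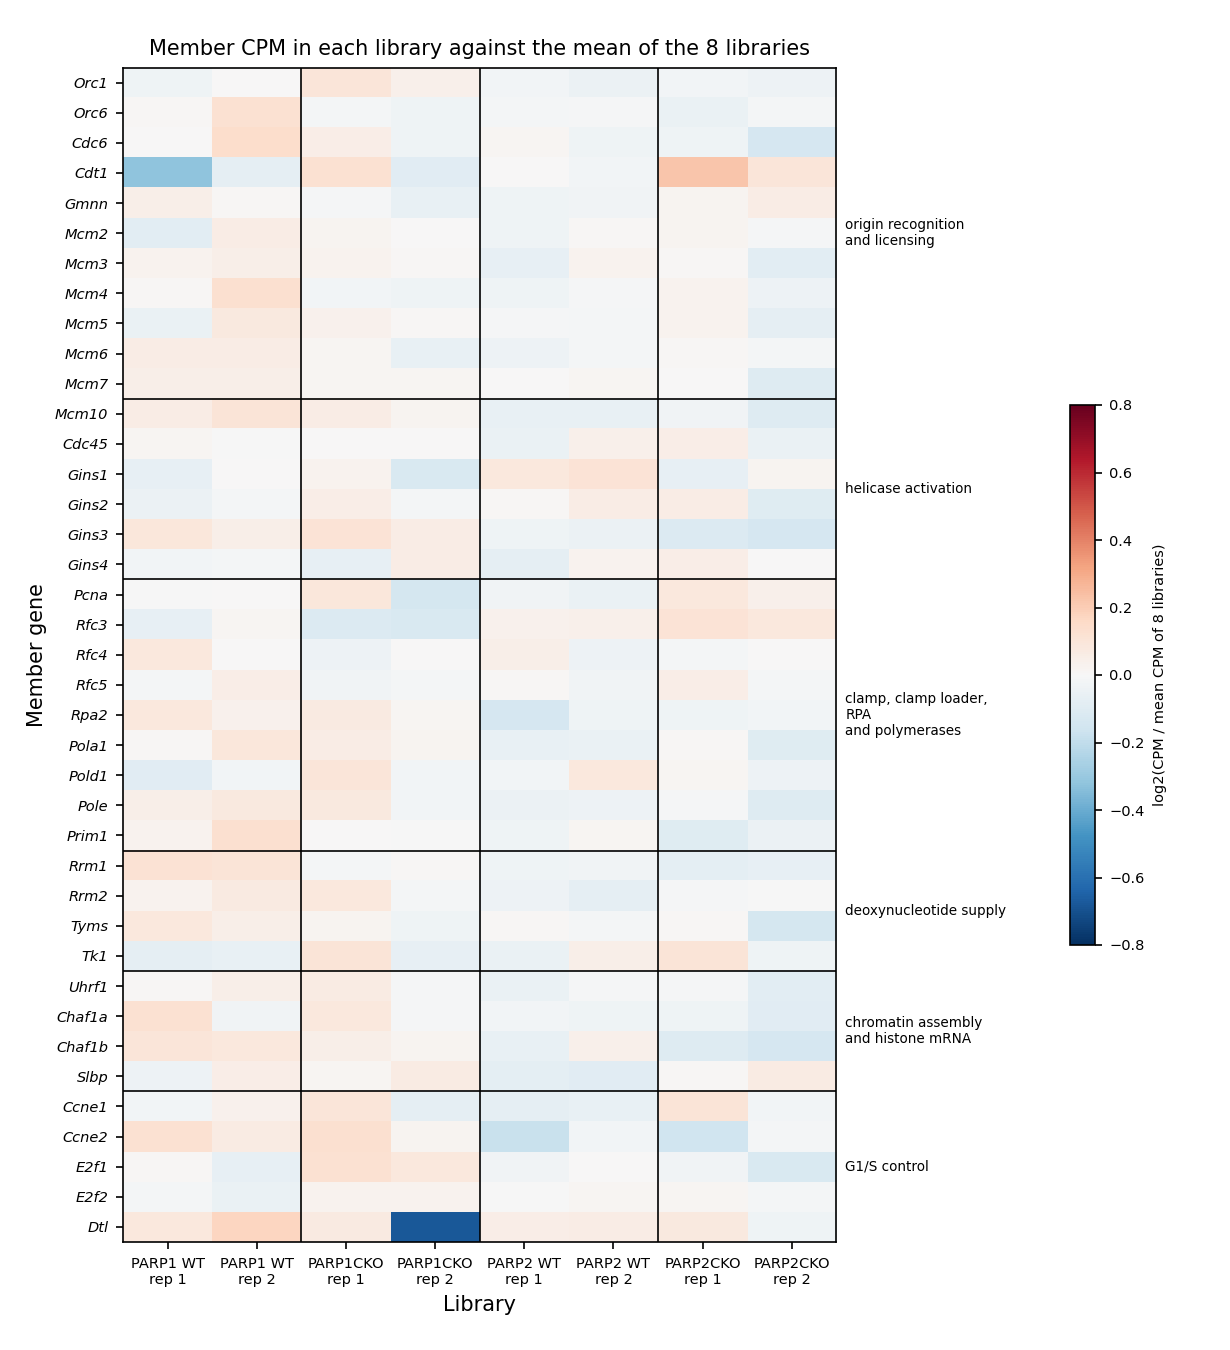
Colour scale of the log2 ratio of each member's CPM to its mean over the 8 libraries, with genes in rows by role and libraries in columns by group. Most cells are pale, and the exceptions are Dtl in PARP1CKO replicate 2 (17.0 CPM) and Cdt1, from 54.7 CPM in PARP1 WT replicate 1 to 79.5 CPM in PARP2CKO replicate 1.

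The first comparison, PARP1CKO against PARP1 WT, asks whether deletion of Parp1 in the myeloid lineage changed replication genes. No member passed an adjusted p of 0.05 in edgeR's quasi-likelihood test, where 14 of all genes tested (0.106%) did. DESeq2 and edgeR's likelihood-ratio test also called no member, and called 0.652% and 1.11% of all genes. At an unadjusted p of 0.05, 2 members were higher (5.13%) and 1 was lower (2.56%), against 6.11% and 5.15% of all genes. Both knockout libraries lay above both controls for 4 members (10.3%, against 21.0% of all genes) and below both for 14 members (35.9%, against 20.2%). The differences were small on either side: the median log2 fold change was -0.0168 (0.00586 over all genes tested), and 38 of the 39 members lay within 0.25 of zero, as did 97.0% of the 8858 genes at or above the lowest member's level. The 95% interval of the log2 fold change lay within ±0.25 for 36 members and within ±0.5 for 38. For the remaining member, Dtl, these libraries did not fix the size of the difference to that precision.

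Rrm1, the large subunit of the ribonucleotide reductase that makes deoxynucleotides, had the smallest p among members. The controls held 228 and 226 CPM and the PARP1CKO libraries 208 and 211 CPM. The groups did not overlap and the duplicates were close, with a log2 fold change of -0.12 (SE 0.0361, 95% interval -0.20 to -0.03, adjusted p = 0.304). Over the alternatives its adjusted p ran from 0.282 to 0.574. E2f1, an activator of S-phase genes, stood at 52.6 and 49.9 CPM without Cre and at 56.8 and 55.3 CPM with it, again without overlap but in the other direction. Its log2 fold change was 0.13 (interval 0.02 to 0.24, adjusted p = 0.375). Cdt1, the licensing factor, stood at 54.7 and 64.9 CPM without Cre and at 74.3 and 64.1 CPM with it. Here the groups overlapped, and the log2 fold change of 0.21 (interval 0.01 to 0.41, adjusted p = 0.433) came with the second widest spread of any member. It was 0.09 without PARP1 WT replicate 1, 0.34 without PARP1 WT replicate 2, 0.10 without PARP1CKO replicate 1 and 0.31 without PARP1CKO replicate 2, so its size depended on single libraries.

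Dtl, which encodes the CDT2 adaptor that directs the CUL4 ubiquitin ligase to CDT1 in S phase, had the largest difference of any member. In the PARP1 line the controls held 28.9 and 30.7 CPM and the knockouts 28.6 and 17.0 CPM. In the PARP2 line the controls held 28.2 and 28.4 CPM and the knockouts 28.7 and 26.6 CPM. A single library, PARP1CKO replicate 2, was low, at 768 counts, and the other knockout replicate sat with the controls. The log2 fold change was -0.38 (SE 0.185, interval -0.80 to 0.04, adjusted p = 0.466). Without PARP1CKO replicate 2 it was -0.06 (adjusted p = 0.825), and without PARP1CKO replicate 1 it was -0.81 and passed the threshold (adjusted p = 0.00583), with the lone knockout library assumed to vary like the other groups. Over all alternatives its adjusted p ran from 0.00583 to 0.879.

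The low Dtl value in that library was shared by the genes next to it. This was looked for after the value had been seen. Dtl lies on the minus strand of chromosome 1 at 191537356 to 191575544 (mm10). From Angel2 at 190925112 to the end of Dtl, a span of 0.65 Mb, 8 consecutive genes among those at or above the lowest member's level and with a position in the annotation were all low in PARP1CKO replicate 2. In chromosome order these were Angel2 (0.541 of the mean of the other 7 libraries), Mfsd7b (0.504, Flvcr1 in the annotation), Nsl1 (0.575), Atf3 (0.697), Nenf (0.556), Tmem206 (0.586), Ppp2r5a (0.558) and Dtl (0.594). Across the other 7 libraries the log2 ratio of these 8 genes stayed between -0.11 and 0.29. The edges were sharp on both sides. Rps6kc1, the next such gene before Angel2, was at 0.999 of the mean of the other libraries, and Ints7, whose gene begins at 191575636, just past the start of Dtl, was at 0.996. All 6 other neighbours within 1.5 Mb had log2 ratios from -0.04 to 0. Over the genome, 139 of the 8858 genes (1.57%) had a log2 ratio of -0.4 or below in this library. Parp1 is on the same chromosome, 10.97 Mb away. What lowered these 8 genes in 1 library was not tested.

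**Figure D3:**
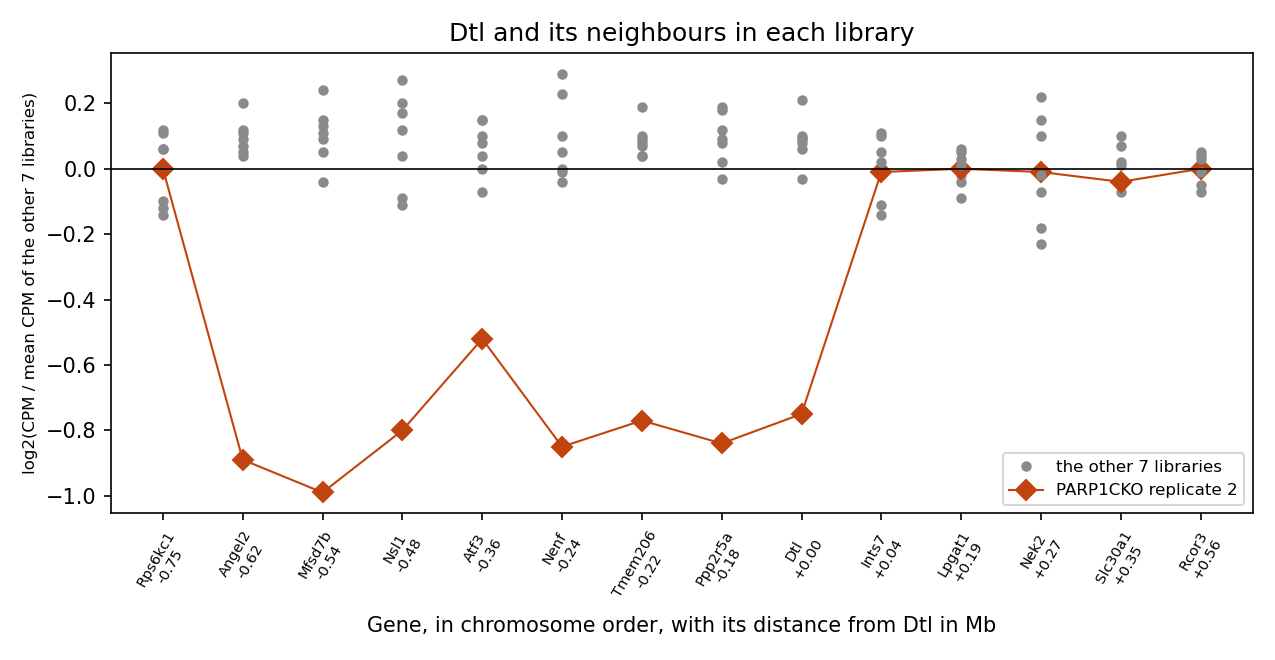
Log2 ratio of each library's CPM to the mean CPM of the other 7 libraries, for Dtl and its neighbours in chromosome order, with the distance of each gene's midpoint from that of Dtl in Mb. The line joins PARP1CKO replicate 2, where the 8 genes from Angel2 to Dtl lie between -0.99 and -0.52 and the 6 other genes between -0.04 and 0, and grey points are the other libraries.

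By role, the log2 fold changes of the licensing genes in PARP1CKO had their median at -0.0375 and ran from -0.09 for Orc6, a small subunit of the origin recognition complex, to 0.21 for Cdt1. The MCM subunits lay between -0.09 (Mcm4) and 0.02 (Mcm2). The helicase activation genes were closest to zero, from -0.04 for Mcm10, which helps CDC45 to act, to 0.05 for Gins2. Among the clamp, loader, RPA and polymerase genes, Rfc3, a clamp loader subunit, was at -0.09 and Pold1, the catalytic subunit of polymerase delta, at 0.09, and 8 of the 9 were below zero. Tk1, the thymidine kinase of the salvage route, was at 0.09, with 0.00 without PARP1CKO replicate 1 and 0.17 without PARP1CKO replicate 2. Of the genes for chromatin assembly, Chaf1b, a subunit of the histone chaperone CAF-1, was at -0.06 and Slbp, which binds the stem-loop of histone mRNAs, at 0.03. None of these passed the adjusted threshold.

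The second comparison, PARP2CKO against PARP2 WT, put the same question for Parp2. Again no member passed, where 7 of all genes tested (0.0530%) did, and DESeq2 and the likelihood-ratio test called no member either, with 0.205% and 0.296% of all genes called. At an unadjusted p of 0.05, 1 member was higher (2.56%) and 0 were lower, against 2.36% and 2.46% of all genes. Both knockout libraries lay above both controls for 9 members (23.1%, against 18.4% of all genes) and below both for 8 (20.5%, against 18.8%). The median log2 fold change was -0.00469 (-0.0014 over all genes tested), all 39 members lay within 0.25 of zero, and 33 of the 95% intervals lay within ±0.25 and all within ±0.5.

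Slbp had the smallest p. The controls held 57.4 and 56.9 CPM and the PARP2CKO libraries 60.9 and 63.5 CPM, without overlap, and its log2 fold change was 0.12 (interval 0.02 to 0.22, adjusted p = 0.931). Chaf1b stood at 35.1 and 37.6 CPM without Cre and at 34.1 and 33.3 CPM with it (log2 fold change -0.11, interval -0.22 to 0, adjusted p = 0.954). These 2 genes of the same role thus stood on opposite sides. Cdt1 stood at 68.4 and 67.4 CPM without Cre and at 79.5 and 73.1 CPM with it (log2 fold change 0.17, interval -0.03 to 0.37, adjusted p = 0.954). Gmnn, which encodes geminin, the inhibitor of CDT1, stood at 39.2 and 39.4 CPM without Cre and at 40.7 and 41.8 CPM with it (log2 fold change 0.07, adjusted p = 0.954). The most abundant member, Pcna, stood at 531 and 522 CPM without Cre and at 574 and 556 CPM with it (log2 fold change 0.10, interval -0.05 to 0.26). Elsewhere the extremes of the roles were Cdc6 (-0.08), a loader of the MCM ring, Gins1 (-0.11) and Gins4 (0.05), Prim1 (-0.06), the catalytic subunit of primase, Rrm2 (0.05) and Tyms (-0.06), which makes thymidylate, and Ccne1 (0.11) and E2f1 (-0.06). No called difference was among them.

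**Figure D4:**
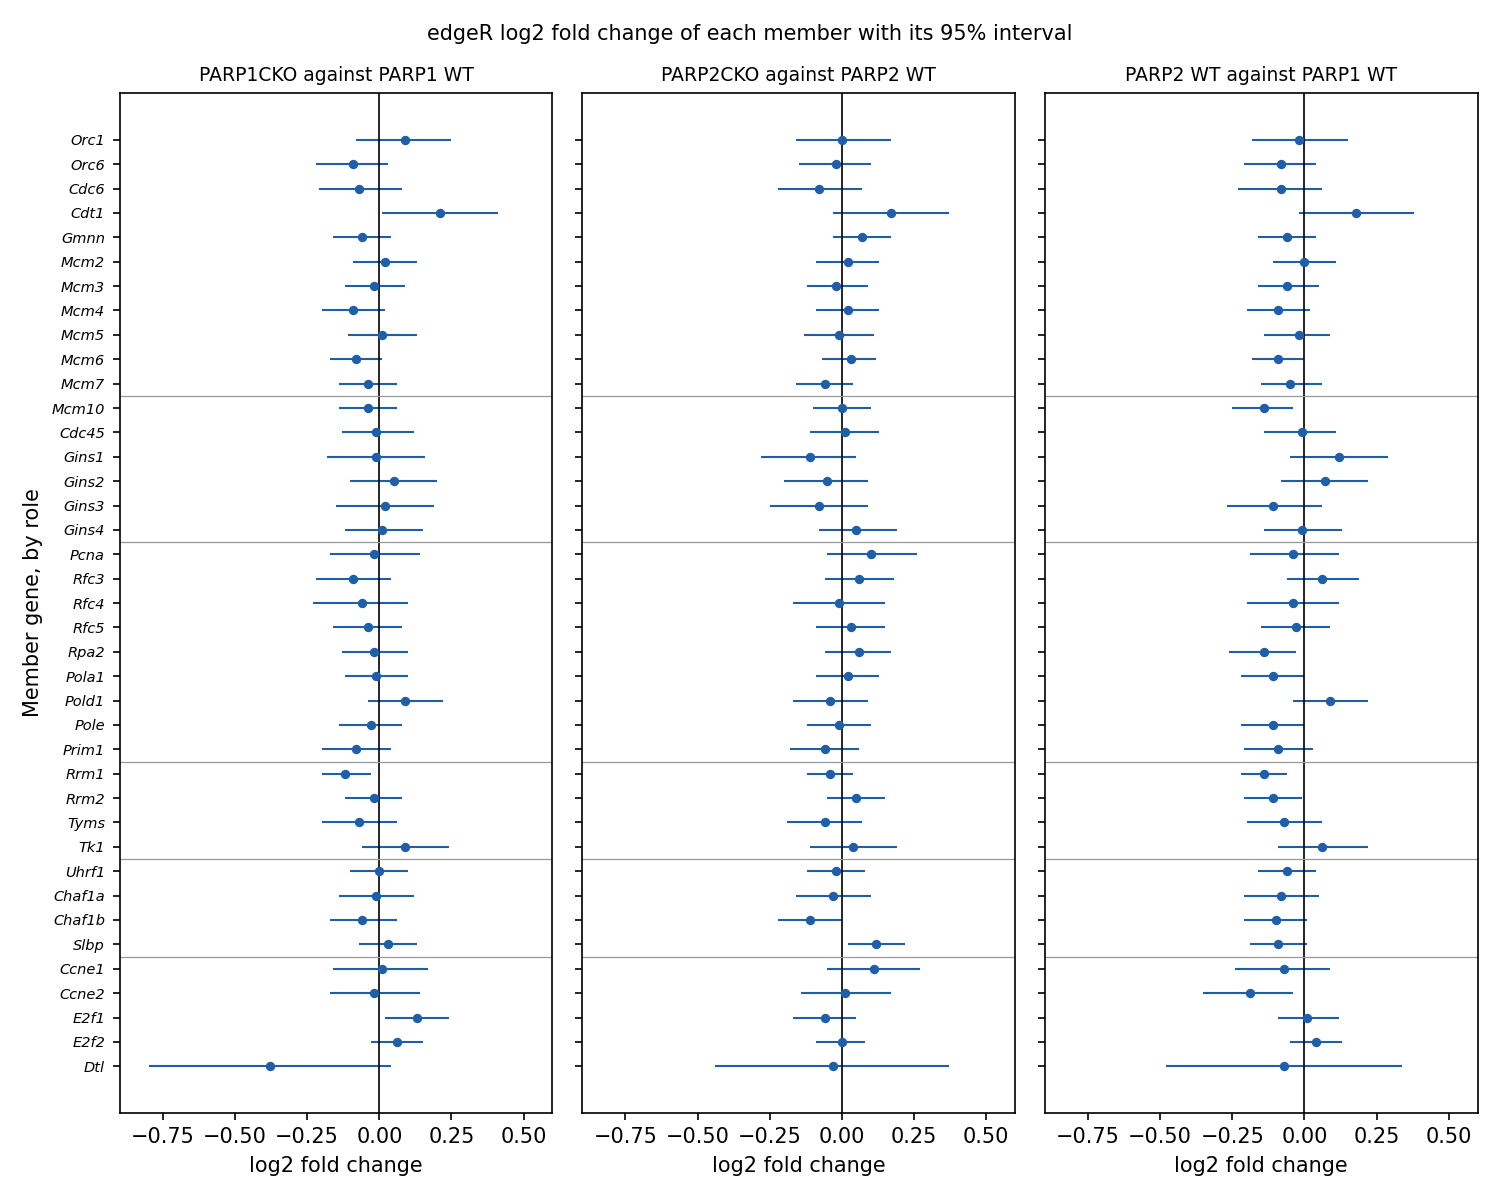
Log2 fold change of each member (points) with its 95% interval (lines) in 3 comparisons, with genes in rows by role. Most intervals cross zero, 36 of 39 in the first panel lie within ±0.25, and the wide interval is that of Dtl.

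The difference between both deletions was tested as an interaction, the PARP2CKO effect minus the PARP1CKO effect. No member passed, nor did any with DESeq2 or the likelihood-ratio test, and the shares of all genes called were 0.0152%, 0.341% and 0.546%. At an unadjusted p of 0.05, 0 members were higher in this contrast and 1 was lower (2.56%), against 3.60% and 4.09% of all genes. That member was E2f1, which lay above its controls in both PARP1CKO libraries and below them in both PARP2CKO libraries, in 1 of them by less than the rounding (51.3 and 52.2 CPM without Cre in the PARP2 line, 51.3 and 48.0 CPM with it). Its difference of effects was -0.19 (interval -0.34 to -0.04, adjusted p = 0.609), and the adjusted p ran from 0.51 to 1.0 over the alternatives. The next members by p in edgeR were Gmnn (0.13, adjusted p = 0.655), Rfc3 (0.15, adjusted p = 0.686) and Mcm6 (0.11, adjusted p = 0.692). Each was lower than its controls in both PARP1CKO libraries and higher in both PARP2CKO libraries. For Mcm6, PARP2 WT replicate 2 and PARP2CKO replicate 2 differed by less than the rounding (218 CPM in both). By role the extremes were Gmnn and Orc1 (-0.08) for licensing, Mcm10 (0.04) and Gins2 (-0.11), Rfc3 and Pold1 (-0.14), Rrm1 (0.08) and Tk1 (-0.05), Slbp (0.09) and Chaf1b (-0.05), and Dtl (0.35, adjusted p = 0.77) and E2f1. Without PARP1CKO replicate 1, which leaves 1 library in that group, the difference for Dtl was 0.78. Without PARP1CKO replicate 2 it moved the other way, by 0.322, so its size depended on single libraries. Intervals of the difference were within ±0.5 for 38 members and within ±0.25 for 22.

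The floxed controls of both lines were set side by side as well. In this comparison, PARP2 WT against PARP1 WT, the line, the litter and any batch cannot be told apart. No member passed, although 417 of all genes tested (3.16%) did, and DESeq2 and the likelihood-ratio test, which called 4.18% and 6.90% of all genes, called no member. At an unadjusted p of 0.05, 0 members were higher and 5 were lower (12.8%), against 10.3% and 8.63% of all genes. With no correction for library composition 0 were higher and 13 lower, and the median of all genes was then -0.0377. Both PARP2 WT libraries lay above both PARP1 WT libraries for 7 members (17.9%, against 26.7% of all genes) and below both for 22 (56.4%, against 25.2%). The median member log2 fold change was -0.0618 (0.00131 over all genes tested) and the range was -0.19 to 0.18. Rrm1 was again first, at 205 and 206 CPM in PARP2 WT beside the 228 and 226 CPM of PARP1 WT (log2 fold change -0.14, interval -0.22 to -0.06, adjusted p = 0.0755). With no correction for library composition its adjusted p was 0.0463, and over all alternatives it ran from 0.0463 to 0.306. Mcm10 was at 43.1 and 44.3 CPM in PARP1 WT and at 39.6 CPM in both PARP2 WT libraries (-0.14, adjusted p = 0.135). Ccne2, a cyclin E, was at 50.5 and 48.5 CPM in PARP1 WT and at 41.0 and 45.7 CPM in PARP2 WT (-0.19, adjusted p = 0.182). Rpa2, a subunit of the single-strand binding protein RPA, was at 34.5 and 33.3 CPM in PARP1 WT and at 29.6 and 31.7 CPM in PARP2 WT (-0.14, adjusted p = 0.186). The member furthest above zero was Cdt1, at 54.7 and 64.9 CPM in PARP1 WT and at 68.4 and 67.4 CPM in PARP2 WT (0.18, adjusted p = 0.318). The other extremes of the roles were Mcm4 (-0.09), Gins1 (0.12), Pold1 (0.09), Tk1 (0.06), E2f2 (0.04), and Uhrf1 (-0.06), a maintenance factor of DNA methylation, and Chaf1b (-0.10), both of them below zero. The PARP1CKO and line comparisons share the PARP1 WT libraries, so the low side of Rrm1 in both rests on the same 2 controls.

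Cell type markers moved with the line, where 3.16% of all genes were called and 10.3% were higher and 8.63% lower at an unadjusted p of 0.05. B cell genes summed to 27.7 to 33.2 CPM in PARP1 WT beside 8.59 to 10.6 CPM in PARP2 WT, with 6 of 8 listed genes called lower, among them Rag1 (-3.69) and Cd79a (-1.79). Basophil and mast cell genes summed to 27.3 to 28.5 CPM and 13.6 to 16.7 CPM, with 0 of 7 called and 6 at an unadjusted p of 0.05. Granulocyte progenitor genes summed to 288 to 325 CPM and 375 to 420 CPM, with Prtn3 and Elane called higher of 7 listed. All 7 were higher at that p and lay above both PARP1 WT libraries (100%, against 26.7% of all genes). Macrophage genes summed to 4558 to 4853 CPM and 5003 to 5294 CPM, with Mertk (0.76) among those called higher and 5 of 10 higher at that p. Monocyte genes summed to 368 to 400 CPM and 442 to 455 CPM, with 0 of 6 called and 3 higher at that p. Of 7 stem and progenitor genes, Kit, a receptor of progenitors, was called lower (-0.70). At that p 3 were lower (42.9%) and 1 was higher (14.3%). Below both PARP1 WT libraries lay 4 (57.1%, against 25.2% of all genes), and above both lay 1 (14.3%, against 26.7%). That 1 was Hoxa9, at 0.233 and 0.242 CPM in PARP1 WT and at 0.536 and 0.404 CPM in PARP2 WT. The median log2 fold change of these 7 genes was -0.415. Their sums overlapped (801 and 876 CPM beside 845 and 877 CPM), but Cd93 alone, at 715 and 781 CPM beside 779 and 816 CPM, made up most of each sum. Neutrophil genes were also divided, with Retnlg called lower (-0.79) and Camp at 0.42 (adjusted p = 0.0805, edgeR). Of the 9 tested, 4 lay above both PARP1 WT libraries (44.4%, against 26.7% of all genes) and 2 below both (22.2%, against 25.2%). Erythroid genes summed to 11.7 to 13.3 CPM and 7.67 to 10.8 CPM, with a median log2 fold change of -0.998 over the 8 tested. Of these, 5 were lower at an unadjusted p of 0.05, and the alpha-globin genes Hba-a1 and Hba-a2, near-identical copies with the same count in every library, were called (-1.31 each). The separation of the erythroid sums rests on counting both copies. Within lines, the summed neutrophil genes ran from 3228 to 3465 CPM in the PARP2 controls and from 2804 to 3198 CPM in their knockouts, with 3026 to 3268 CPM and 2688 to 3399 CPM in the PARP1 line. In the PARP2 line 3 other lists also stood apart. Macrophage genes summed to 5003 and 5294 CPM in the controls and to 5504 and 5299 CPM with Cre, a separation of 5294 from 5299 CPM that was lost with library size only (4951 and 5262 CPM beside 5309 and 5213 CPM), and 4 of 10 (40.0%) were higher at an unadjusted p of 0.05, against 2.36% of all genes. Basophil and mast cell genes summed to 16.7 and 13.6 CPM in the controls and to 8.93 and 11.3 CPM with Cre, with 5 of 7 (71.4%) below both controls, against 18.8% of all genes, and monocyte genes to 442 and 455 CPM and to 421 and 436 CPM. Stem and progenitor genes summed to 801 to 876 CPM in the PARP1 controls and to 754 to 779 CPM in their knockouts. Cd93 alone, at 715 and 781 CPM beside 708 and 677 CPM, made up most of each sum. Of these 7 genes 3 were higher and 4 lower. Above both controls lay 1 (14.3%, against 21.0% of all genes) and below both lay 3 (42.9%, against 20.2%). Erythroid genes summed there to 11.7 to 13.3 CPM and to 14.2 to 18.6 CPM. That sum counts both Hba-a1 and Hba-a2, each at 1.99 and 1.77 CPM beside 3.11 and 3.83 CPM. Its separation rests on counting both. No gene of any of these marker lists was called in either knockout comparison, no list had a gene at 0 in every library, and 1 of 8 T and NK cell genes was abundant enough to be tested. The part of these cell types in the levels of replication genes was not tested.

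Other genes of the pathway were read from lists of known members, and their counts at an unadjusted p of 0.05 stand against 5.15% of all genes lower in PARP1CKO, 2.46% in PARP2CKO and 8.63% between the lines. In PARP1CKO, 0 of 42 other replication genes were called, with 4 lower (9.52%) and 0 higher at an unadjusted p of 0.05, and the lowest p values were those of Pclaf, a PCNA-binding factor (-0.13, adjusted p = 0.289), and Dbf4, the activator of the CDC7 kinase (-0.15, adjusted p = 0.301). In PARP2CKO, 0 of 42 were called, with 2 lower (4.76%) at an unadjusted p of 0.05, Dbf4 (-0.11) and the origin recognition subunit Orc3 (-0.09). Between the lines, Wdhd1, which tethers polymerase alpha to the helicase, was at 50.8 and 50.9 CPM in PARP1 WT and at 43.5 and 42.4 CPM in PARP2 WT. It was called lower (-0.24, adjusted p = 0.0152, edgeR), as 1 of the 42, where 3.16% of all genes were called. Of 33 other G1/S and E2F target genes, 0 were called in any comparison. At an unadjusted p of 0.05, 6 were lower in PARP1CKO (18.2%), 0 in PARP2CKO and 13 in PARP2 WT against PARP1 WT (39.4%), with Ccna2, the S-phase cyclin A, at -0.15, -0.07 and -0.18. The first and the last of these comparisons share the PARP1 WT libraries and are not separate observations. Of 9 CDK inhibitors and pocket proteins, which hold cells in G1, none was called in any comparison, with 1 lower (11.1%) at an unadjusted p of 0.05 in each knockout, namely Cdkn1c, which encodes p57, in PARP1CKO and Cdkn1b, which encodes p27, in PARP2CKO. Cdkn1c held 99.9 and 111 CPM in the PARP1 controls and 77.7 and 75.7 CPM in their knockouts (-0.46, adjusted p = 0.331), and in the PARP2 line the controls were far apart, at 111 and 73.8 CPM, with 97.1 and 89.5 CPM in the knockouts between them. Cdkn1b was at 0.07 in PARP1CKO (adjusted p = 0.748) and at -0.17 in PARP2CKO (adjusted p = 0.954).

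Genes of G2 and mitosis were read beside the members. Their 28 genes summed to 2992 and 3058 CPM in the PARP1 controls beside 2883 and 2835 CPM in their knockouts. In the PARP2 line the sums were 2819 and 2825 CPM beside 2707 and 2720 CPM, so that each knockout lay below its control without overlap, where the summed members overlapped. Some replication lists did not overlap either. In PARP1CKO the 42 other replication genes summed to 2057 and 2051 CPM, beside 2112 and 2126 CPM in the controls. The 4 members for deoxynucleotide supply summed there to 402 and 392 CPM, beside 414 CPM in both controls. Rrm1 alone, at 208 and 211 CPM beside 228 and 226 CPM, made up most of each sum, and of the 4 genes 1 was higher and 3 lower. In PARP2CKO the sum of the 9 clamp, loader, RPA and polymerase members was higher, at 863 and 835 CPM beside 812 and 809 CPM. Pcna alone, at 574 and 556 CPM beside 531 and 522 CPM, made up most of each sum. Of the 9 genes, 5 were higher and 4 lower, with a median log2 fold change of 0.016. With library size only, the other replication genes (1989 and 2041 CPM beside 2056 and 2054 CPM) and the deoxynucleotide supply members (373 and 374 CPM beside 381 and 384 CPM) were below their controls in PARP2CKO too. So were the 4 chromatin assembly and histone mRNA members in PARP2CKO (297 and 295 CPM beside 299 and 305 CPM). The 33 other G1/S and E2F target genes were then lower in PARP1CKO (2984 and 2907 CPM beside 2994 and 3075 CPM). No single G2/M gene was called in either knockout comparison. At an unadjusted p of 0.05, 10 of 28 were lower in PARP1CKO (35.7%, against 5.15% of all genes) and 5 in PARP2CKO (17.9%, against 2.46%), and the median log2 fold changes of the list were -0.09 and -0.06. In PARP2 WT against PARP1 WT, 17 were lower at that p (60.7%, against 8.63%). Cenpe and Cenpf, kinetochore proteins, were called there (-0.19 each), where 3.16% of all genes were called. This comparison and that of PARP1CKO share the PARP1 WT libraries, so their lower G2/M genes are not separate observations. The neutrophil, monocyte and basophil and mast cell sums moved without overlap beside the G2/M sums in the PARP2 line. The macrophage sum did so there with scaling for composition but not with library size only. In the PARP1 line the stem and progenitor sum, most of it Cd93, moved without overlap. So did the erythroid sum, but only with Hba-a1 and Hba-a2 both counted. The part of these cell types in this was not tested. A difference between these genes and the replication genes was not tested.

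**Figure D5:**
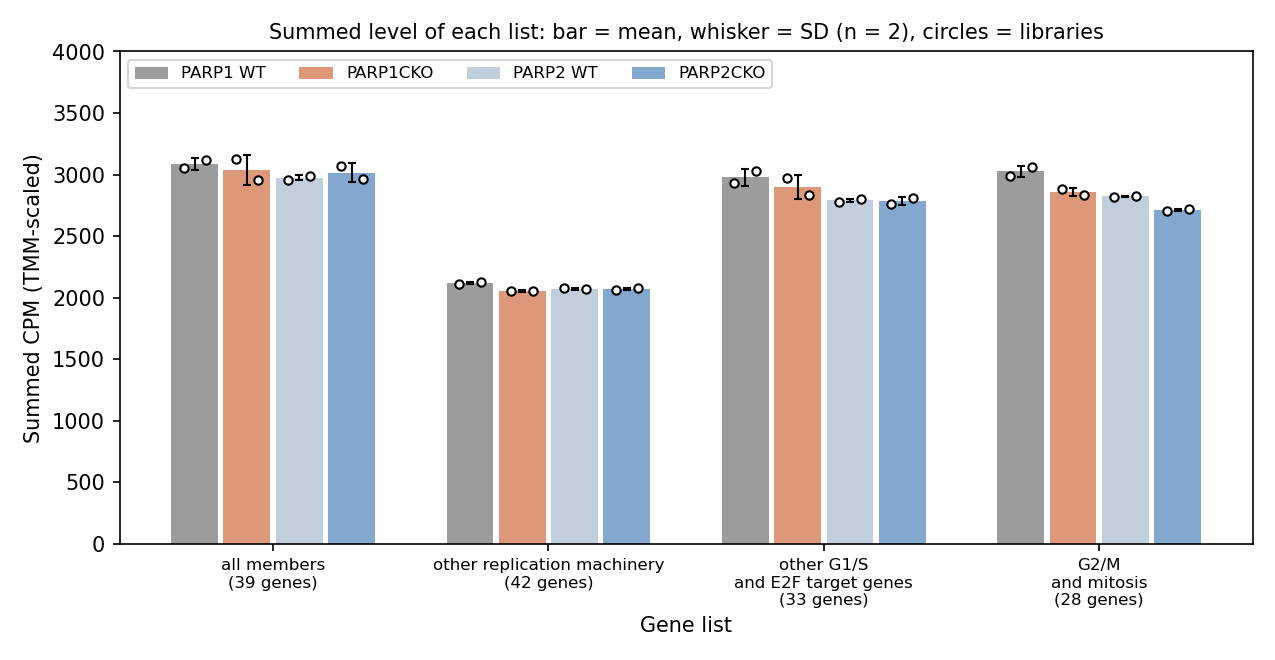
Summed CPM of the members and of 3 other lists in the 4 groups. Bars are means of 2 libraries, whiskers the SD and circles the libraries. The members overlap between each knockout and its control, and the 28 G2/M genes do not.

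Reads that overlap a neighbour limit 8 members. Ccne2, Chaf1a, Gins2, Mcm7, Orc6, Rfc4, Rfc5 and Tk1 each overlap a protein-coding gene on the opposite strand, over 64 to 5622 bases, and the strand setting used to count reads was not given in the sources used here. The pseudogene row named after Tyms held at most 2 counts.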

How the data were processed

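Total RNA libraries of the 8 samples (4 groups of 2) were sequenced, and the authors deposited raw read counts per gene symbol. Per the labels, the submitters' processing notes name the build mm10, FastQC 0.11.2, TopHat2 2.0.12, Picard 1.127, Subread, featureCounts and edgeR. The annotation and strand setting were not given in the sources used here. The study's methods name edgeR at a false discovery rate of 0.05 on FPKM, and counts were used here instead. Counts were scaled by TMM and genes filtered with filterByExpr. They were fitted in edgeR 4.0.16 (R 4.3.3; quasi-likelihood test, common coefficient of biological variation 0.055) with 1 mean for each group over all 8 libraries, and p-values were adjusted by Benjamini-Hochberg over the 13197 genes tested. DESeq2 1.42.0, a likelihood-ratio test, other scalings, filters, a replicate block and leaving out each library were alternatives. The code was tested on simulated data. Intervals are 95% Wald intervals of the fit. With 2 against 2 libraries the smallest exact two-sided p for a single value is 0.333, so single values were left untested outside the fit. FPKM used exonic lengths and positions of GENCODE M21, and promoters came from RefSeq (GRCm38.p6). The members and lists were chosen with earlier results of these data known. Genes described in full were the 4 members with the smallest p and the extremes of each role in each comparison, and, of other lists, called genes or the 3 with the smallest p. Of 225 listed genes 224 matched a row, 2 of them by synonym, and Ly6g was not analysed here. Figures were drawn with matplotlib 3.10.9.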

Additional observations from a re-analysis of the deposited data

Results flagged for a closer look

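The effect on Parp2 differed between the deletions (PARP2CKO effect minus PARP1CKO effect -0.82 on the log2 scale, adjusted p = 0.00634, edgeR), as the targeted gene of 1 of them. No member met a rule for a closer look, and groups of 2 libraries are too small for the test of a single outlying sample.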

How the results depend on the processing

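No member was called under any other scaling, test or filter, or with the replicate block, in the knockout comparisons and their difference. Leaving out 1 library in turn gave 0 to 1 members called in PARP1CKO and in the difference of effects, the 1 being Dtl without PARP1CKO replicate 1, and 0 in the other comparisons. In PARP2 WT against PARP1 WT, 1 member (Rrm1) passed at an adjusted p of 0.1, and 1 (Rrm1, -0.18) with library size only, a scaling that put the median of all genes at -0.0377 (0.00131 with TMM) and the median member value at -0.101. Leaving out 1 library, the median member log2 fold change ran from -0.0482 to 0.0088 in PARP1CKO, from -0.0321 to 0.0288 in PARP2CKO, from -0.0228 to 0.0477 in the difference of effects and from -0.0662 to -0.0405 between the lines, so the sign of the first 3 depends on single libraries. The summed member CPM with library size only was 3145 in PARP1 WT, 2951 in PARP2 WT and 2937 in PARP2CKO, and the PARP2CKO mean was then under that of its control. Of 787 values of members described in full under alternatives, 777 kept direction and side, 3 passed the threshold (Dtl in PARP1CKO and in the difference, Rrm1) and 7 changed sign: Slbp in PARP1CKO without PARP1 WT replicate 1 (-0.02; range with 1 library left out -0.02 to 0.07) and Tyms in PARP2CKO without PARP2CKO replicate 2 (0.01; range -0.14 to 0.01), and, in the difference of effects, Tk1 without PARP1CKO replicate 1, PARP2 WT replicate 2 or PARP2CKO replicate 2 (range -0.13 to 0.04), Chaf1b without PARP2 WT replicate 2 (range -0.10 to 0.00) and Mcm10 without PARP2CKO replicate 1 (range 0.00 to 0.07). Those members lie at the extremes, and over all 39 more changed sign: 10 in PARP1CKO without PARP1CKO replicate 2 (21 higher and 18 lower, from 13 and 26), 8 without PARP1 WT replicate 1, and 10 in PARP2CKO without PARP2CKO replicate 2. In the difference of effects 10 changed sign without PARP2CKO replicate 2 (29 higher and 10 lower, from 23 and 16). With library size only, 7 changed sign in PARP2CKO (11 higher and 28 lower, from 18 and 21). Deviations of same-numbered libraries had correlations of -0.133 in the PARP1 line and 0.147 in the PARP2 line, and not every pair was above 0.1, so the numbers were not taken to pair samples. With the replicate block the members called stayed at 0, and all genes called went from 14 to 14 in PARP1CKO, 7 to 6 in PARP2CKO, 2 to 3 for the difference and 417 to 315 between the lines. With crossed pairing, chosen after seeing the data, these were 18, 7, 2 and 378. Member counts began at 372, and the part of counting error in the spread of the low members was not separated from that of having 2 libraries a group.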
